A study of Mus musculus with 23 samples.

Results

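A set of 10 genes of the Bcl2 family was followed through 23 murine pancreatic ductal adenocarcinoma (PDAC) cell lines, each measured on 1 array. The 10 genes were Bcl2, Bcl2l1, Bcl2l2, Mcl1, Bcl2l11, Bbc3, Pmaip1, Bak1, Bid and Bad. A probe set was used where the annotation of the array gave it only 1 of these symbols, which held for 33 of the 45037 probe sets tested. For each gene the probe set with the highest mean over the lines was read, and the other 23 served as a check. Bbc3 and Pmaip1 had no other probe set, so their values had no such check. All values below are log2 levels of such a probe set, so a difference of 1 is a doubling, and levels of different genes cannot be set against each other because probe sets differ in brightness.

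The lines received no drug before the arrays, and the study tested separately how strongly the PI3K and mTOR inhibitor Bez235 and the mTOR inhibitor Rad001 reduced their viability. The 23 lines came from 14 mice, 5 of which gave several lines, 14 in all. The study's tables list an R172H allele of Trp53, a Cre-activated point mutant of p53, for 6 lines of 4 mice. No Trp53 allele is listed for 7 lines of 7 mice, and for 10 lines of 3 mice no genotype was found in the tables used here. Lines with no Trp53 allele are, throughout, those 7 for which none is listed, which does not mean that the gene is missing. In every listed line the Cre recombinase was driven in pancreatic cells by Ptf1a or Pdx1. By the inhibitory concentration (IC50) of Bez235, 9 lines lay above the cutoff of 10 nmol/L and 14 below it. The study's confidence intervals include the cutoff for most lines above it and for several below it. By the prefix of the name, 11 were metastasis lines and 12 were primary tumour lines, since PPT was read as primary tumour. Of the 10 lines with no listed genotype 8 were metastasis lines, against 2 of the 6 R172H lines and 1 of the 7 lines with no Trp53 allele, so site, mouse and genotype are partly tied together.

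Bcl2 proteins decide whether the outer membrane of mitochondria is opened, the step that releases cytochrome c and starts the caspases. Anti-apoptotic members hold the pore-forming members Bak and Bax in check, and BH3-only members, induced or freed by stress, block the guards or activate the pore. PI3K signalling restrains several BH3-only members, through phosphorylation of Bad and through exclusion of FOXO factors from the nucleus, and p53 induces Bbc3 and Pmaip1, which encode Puma and Noxa. Bax and Trp53 themselves were not analysed here.

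FOXO factors bind the heptamer TGTTTAC, and Bcl2l11, which encodes Bim, and Bbc3 are known FOXO targets. RefSeq start sites of build GRCm38.p6 gave 15 windows of 250 bases upstream for 9 of the 10 genes, and the heptamer was found on either strand in 2 of them, 1 of Bcl2l11 and 1 of Bbc3. It was present in 3.17% of all 32851 such windows. In total 13 patterns were looked at, some of them overlapping, and this one was chosen for display after the matches of all 13 had been seen, so the 2 matches are a description only. The p53 half-site was in 0 of the 15 windows and in 7.13% of all. Both windows are shown 5′ to 3′ on the plus strand with the heptamer or its reverse complement in capitals, at chr2:128125788-128126037 for Bcl2l11 and at chr7:16310011-16310260 for Bbc3.
Bcl2l11: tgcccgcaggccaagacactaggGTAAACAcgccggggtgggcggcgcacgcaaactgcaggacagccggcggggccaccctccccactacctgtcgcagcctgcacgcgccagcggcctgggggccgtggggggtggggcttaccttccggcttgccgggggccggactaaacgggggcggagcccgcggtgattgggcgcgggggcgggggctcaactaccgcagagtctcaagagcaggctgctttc
Bbc3: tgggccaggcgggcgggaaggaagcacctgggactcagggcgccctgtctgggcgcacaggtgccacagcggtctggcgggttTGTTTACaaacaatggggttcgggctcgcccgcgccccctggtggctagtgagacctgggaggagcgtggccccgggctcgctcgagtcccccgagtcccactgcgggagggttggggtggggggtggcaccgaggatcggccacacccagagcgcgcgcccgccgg

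Among the anti-apoptotic genes, Bcl2 itself varied most. It ranged between 5.44 in PUL-15272 and 8.42 in PPT-16992, with a median of 7.13 and an SD of 0.66 over the 23 lines. The 4 lines of mouse 15272 alone stood 2.46 apart, between 5.44 in PUL-15272 and 7.90 in PPT-15272. A metastasis line and the primary tumour line of the same mouse were thus almost as far apart in Bcl2 as the extremes of all lines, which differed by 2.98. Bcl2l1, which encodes Bcl-xL, lay between 7.93 in HEP2-53631 and 9.35 in B-6051 (SD 0.37). Bcl2l2, which encodes Bcl-w, lay between 6.31 in B-6051 and 8.02 in ASC-53909 (SD 0.45). Mcl1, whose short-lived protein guards against Bim and Noxa, was among the steadiest, between 10.16 in PUL3-53631 and 11.28 in LN1-15272 (SD 0.34).

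Among the BH3-only genes, Pmaip1 varied most and Bad least. Pmaip1 had a median of 7.90 and a highest value of 8.86 in PPT-15272. Its lowest value, 3.43 in ASC-53909, was under 3.76, the midpoint of every value measured, and the next lowest was 6.23 in PPT-17728. ASC-53909 was therefore the only line of the 23 in which the Pmaip1 probe set lay in the dimmer part of the array. The same line had the lowest Bcl2l11 level (6.85) and the highest levels of Bcl2l2 (8.02), Bak1 (7.67) and Bad (8.63). By these probe sets 5 of the 10 genes were extreme in it, which the other probe sets bore out only in part. The other Bcl2l2 probe sets read 4.59, 4.25 and 3.81 there, under their medians of 4.91, 4.41 and 4.25. The next brightest Bcl2l11 probe set read 7.66, above its median of 7.51, and the rest lay below their medians. The other Bak1 and Bad probe sets read 4.11 and 8.36, against highest values of 4.38 and 8.39. Bad, which encodes a BH3-only protein held inactive by AKT phosphorylation, spanned only 7.91 to 8.63 (SD 0.17).

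Bbc3 was high in a pair of lines. PPT-5671 had 8.09 and PPT-5748 had 7.76, while the other 21 lines lay between 5.86 and 6.93. Both lines come from primary tumours of mice with no listed Trp53 allele. Both had Bez235 IC50 values above the cutoff, though the study's confidence intervals of both include the cutoff. In the same lines Bak1, the pore-forming member, was near its minimum, at 6.31 in PPT-5671 and 6.21 in PPT-5748, against 6.27 in HEP-5123, 6.29 in B-6051 and 6.74 to 7.67 in the remaining lines. The other Bak1 probe set did not show this, at 4.1 in PPT-5671 and 3.95 in PPT-5748, above its median of 3.93. Bok, another pore-forming relative that was singled out after its values were seen, was lowest in this pair, at 6.93 in PPT-5671 and 6.59 in PPT-5748, and the other lines had 7.56 to 9.87. Bid, which links death receptors to mitochondria, ranged between 6.78 in PPT-3250 and 9.26 in PPT-15272 (SD 0.59). Bcl2l11 ranged between 6.85 in ASC-53909 and 8.78 in B-6051 (SD 0.53).

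**Figure D1:**
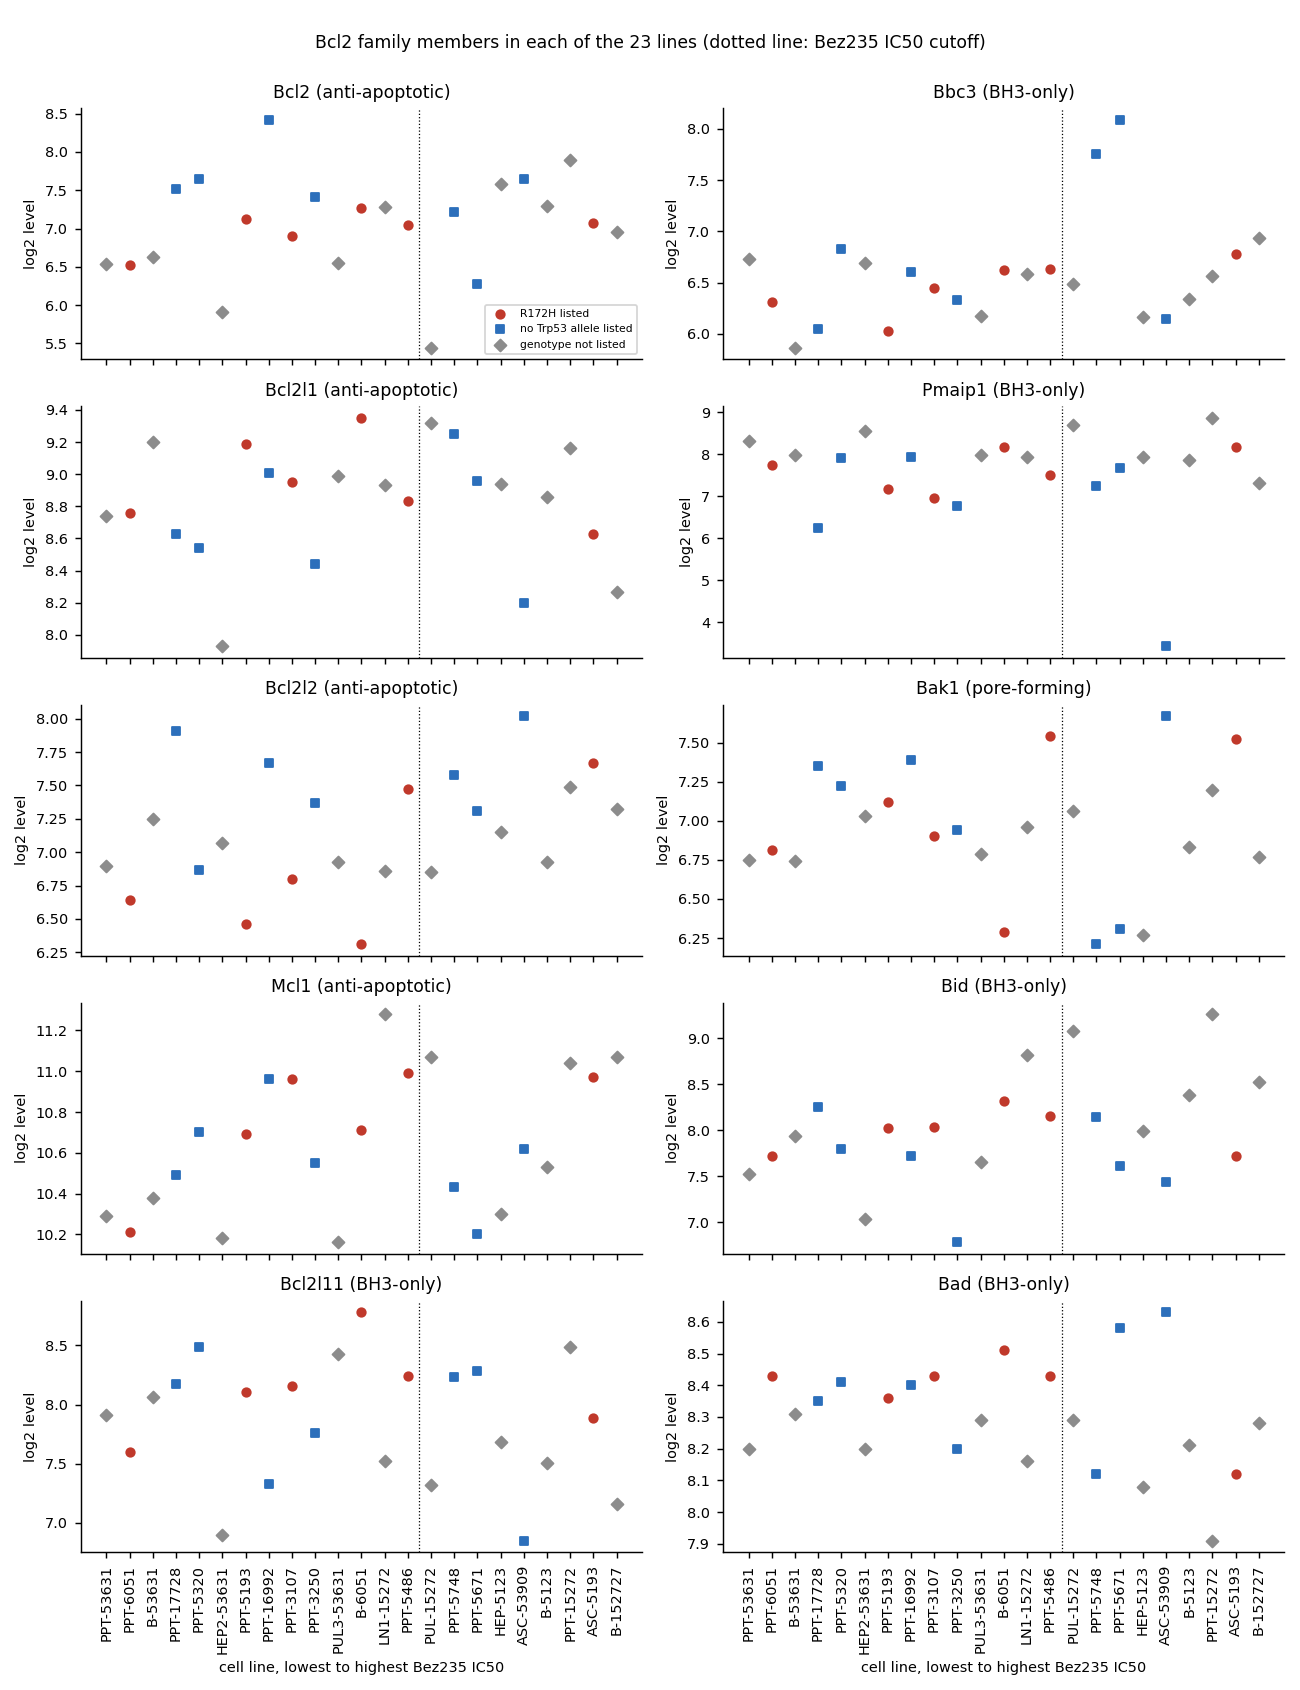
Log2 level of each of the 10 genes (y axis, a separate scale per panel) in the 23 lines, ordered along the x axis by increasing Bez235 IC50, with the cutoff as a dotted line and colours and symbols for the Trp53 listing. Pmaip1 at 3.43 in ASC-53909 and Bbc3 at 8.09 in PPT-5671 and 7.76 in PPT-5748 stand apart from the other lines.

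The members did not move as a block. Over the 45 pairs of members, Pearson's r across the 23 lines ranged between -0.512, for Pmaip1 and Bad, and 0.612, for Mcl1 and Bid, with a median of 0.035, and 41 pairs were below 0.5 in size. Without ASC-53909, which held both the lowest Pmaip1 and the highest Bad level, r of that pair was -0.318, and the pairs ranged between -0.345 and 0.622. These are descriptions over lines that in part share a mouse. Of 11745 genes brighter than the median, the genes most like Bcl2 across the 23 lines were Fn1, which encodes fibronectin (r = 0.862), Khdrbs1 (r = 0.829) and Dock8 (r = 0.828). Those most like Pmaip1 were Fuca2 (r = 0.825), Lratd2 (r = 0.818) and Macroh2a1 (r = 0.81). Those most like Bid were Dusp7 (r = 0.789), Rbm6 (r = 0.783) and Ankrd50 (r = 0.781). The r of Pmaip1 with Fuca2, Lratd2 and Macroh2a1 was not recomputed without ASC-53909, its lowest line by far. Among the members, leaving out that line moved r of Pmaip1 from 0.277 to -0.137 with Bcl2l11 and from 0.303 to 0.24 with Bid.

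Mcl1 and Bid went with the mouse of origin. The 4 lines of mouse 15272 held the 4 highest Mcl1 levels of all lines, between 11.04 and 11.28, and also the 4 highest Bid levels, between 8.52 and 9.26. The 4 lines of mouse 53631 were near the bottom for Mcl1, between 10.16 and 10.38. In mouse 15272 the primary tumour line, at 11.04, was just under its metastasis lines (11.07 to 11.28), and in mouse 53631 the primary tumour line, at 10.29, lay among them (10.16 to 10.38). A limma F test over the 5 mice with several lines (14 lines), added after these values were seen and so not independent of them, called Mcl1 (F = 12.74, adjusted p = 0.0238) and Bid (F = 10.09, adjusted p = 0.0386). That is 2 of 10 members, against 2.94% of all probe sets tested and 4.73% of those brighter than the median. The calls rested on these mice and on these probe sets: without mouse 15272 or without mouse 53631 there were 0 members called, and of the other probe sets, none of 5 for Mcl1 and none of 2 for Bid passed. Bcl2l11 differed by up to 1.53 within a mouse and Bcl2l1 by up to 1.27, against whole ranges of 1.93 and 1.42.

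**Figure D2:**
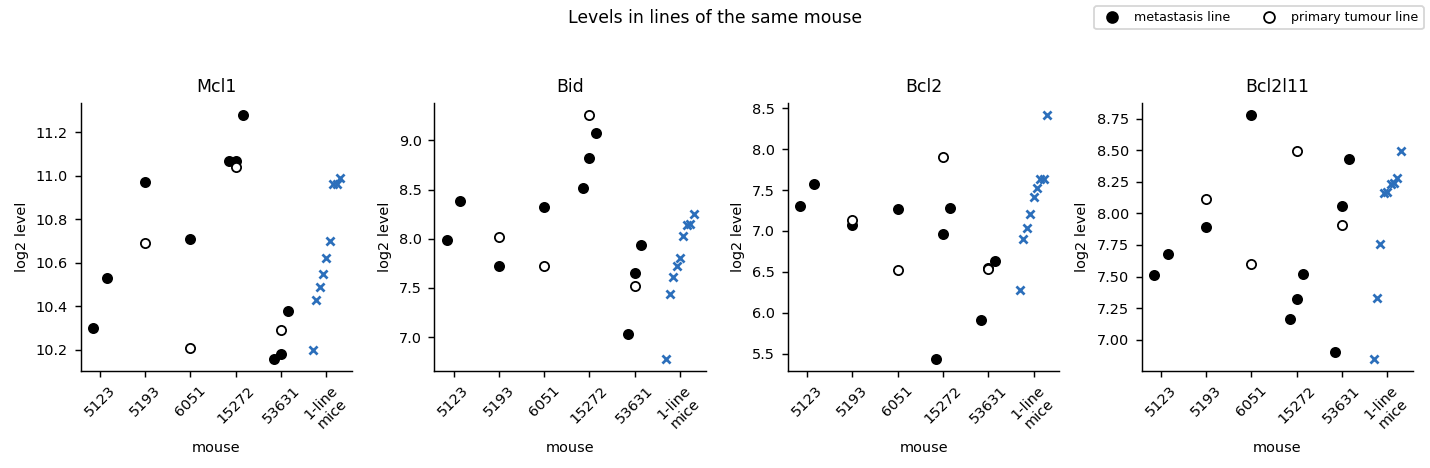
Log2 levels (y axis) of Mcl1, Bid, Bcl2 and Bcl2l11 in the lines of each of the 5 mice with several lines (x axis; filled, metastasis line; open, primary tumour line), with the 9 mice of 1 line each as crosses. Mouse 15272 lies at the top for Mcl1 and Bid and spans 2.46 for Bcl2.

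The Trp53 comparison set the 6 R172H lines against the 7 lines with no listed Trp53 allele, with limma over all 23 lines and the mouse as a random block. Of the 10 members 0 passed an adjusted p of 0.05 and 1 had an unadjusted p under 0.05, against 0.524% of all probe sets called (236 of 45037) and 14% with an unadjusted p under 0.05. The member shares were no higher than this background. The number of all probe sets called was itself unstable, between 16 and 517 when a mouse was left out and 2123 without PPT-5671 and PPT-5748, while 0 members were called each time. The median difference of the members was 0.12, and that of all probe sets was 0.00. With trended and robust variances limma also called 0 members.

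Of the anti-apoptotic genes, Bcl2l2 came nearest. It had 6.31, 6.72 and 7.67 as lowest, median and highest level in R172H lines, against 6.87, 7.58 and 8.02 in lines with no Trp53 allele. The groups overlapped, since the R172H lines PPT-5486 and ASC-5193 reached 7.47 and 7.67. The fitted difference was -0.63 (SE 0.22, 95% interval -1.08 to -0.18, unadjusted p = 0.00864, limma adjusted p = 0.185). Another Bcl2l2 probe set gave -0.32, and the other 2 gave 0.19 and 0.11, so the sign depended on the probe set. Bcl2 averaged 6.99 ± 0.26 in R172H lines and 7.45 ± 0.64 in lines with no Trp53 allele (SD, n = 6 and 7), a fitted difference of -0.46 (95% interval -1.19 to 0.28). It was -0.30 without PPT-16992, the line with the highest level. All 5 of its probe sets gave a negative difference, and none passed. The lowest unadjusted p came from its dimmest probe sets. The probe set above the array median in 2 lines gave -0.40 (limma unadjusted p = 0.0382), and that above it in 7 lines gave -0.78 (p = 0.0366). Bcl2l1 (0.23, SE 0.22, and 0.14 without ASC-53909) and Mcl1 (0.20, SE 0.18, and 0.34 without PPT-6051 and B-6051) had positive differences. Of the other probe sets, 2 of 3 for Bcl2l1 and 4 of 5 for Mcl1 had negative ones. The 2 for Bcl2l1 gave -0.007 and -0.13, the latter from a probe set above the array median in 0 lines. The 4 for Mcl1 had r of 0.37 to 0.43 with the main probe set. The Mcl1 probe set most like the main one (r = 0.857) gave 0.41 (95% interval 0.049 to 0.775, limma unadjusted p = 0.0278, adjusted p = 0.285).

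Bbc3 and Pmaip1 are textbook p53 targets, so their levels were set beside those of other targets. Bbc3 had 6.03, 6.54 and 6.78 as lowest, median and highest level in R172H lines, against 6.05, 6.60 and 8.09 in lines with no Trp53 allele. Its fitted difference of -0.36 (SE 0.28, 95% interval -0.94 to 0.23, adjusted p = 0.629) became 0.08 without PPT-5671 and PPT-5748, a choice made after seeing the data. Pmaip1 had 6.96, 7.62 and 8.17 in R172H lines, against 3.43, 7.23 and 7.94 in lines with no Trp53 allele. Its difference of 0.86 (SE 0.53, 95% interval -0.23 to 1.95, adjusted p = 0.499) was 0.31 without ASC-53909, also a choice made after seeing the data. Neither gene therefore showed a difference that passed, and 1 or 2 lines set the size of each.

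Of 11 other p53 targets measured, 3 were called lower and 0 higher in R172H lines at an adjusted p of 0.05, against 0.524% of all probe sets called. Of the 11, 1 had a positive difference, and the median was -0.68. By limma 6 had an unadjusted p under 0.05, against 14% of all probe sets. Eda2r, a death receptor relative, averaged 2.59 ± 0.35 in R172H lines and 5.88 ± 1.28 in lines with no Trp53 allele (SD, n = 6 and 7; adjusted p = 0.00592). Ccng1, which encodes cyclin G1, averaged 8.81 ± 0.25 in R172H lines and 10.59 ± 0.79 in lines with no Trp53 allele (adjusted p = 0.00812). Cdkn1a, the gene of the cell cycle brake p21, averaged 7.40 ± 1.21 in R172H lines and 9.74 ± 0.71 in lines with no Trp53 allele (adjusted p = 0.0189, all by limma). The R172H line ASC-5193 had 9.68 for Cdkn1a, against 6.20 to 7.45 in the other R172H lines. Whether the differences of Bbc3 and Pmaip1 differ in size from those of these genes was not tested.

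Of 7 markers of ductal epithelium 0 passed in the same comparison, and 7 had a positive difference, with a median of 1.83. They ranged between 0.08 for Krt8 and 5.48 for Krt7 (adjusted p = 0.0525), and their part in the member values was not tested. Their mean level per line was 3.48 to 11.16 in R172H lines (median 10.68) and 6.22 to 9.28 in lines with no Trp53 allele (median 7.22). The line with the lowest mean, 3.48, was ASC-5193, an R172H line whose Bcl2l2 level of 7.67 was the highest of its group. Over all lines, leukocyte markers averaged 2.97 to 4.17 per line and endothelium markers 2.54 to 3.13, without a marker passing. Of 5 fibroblast markers 0 passed and 4 had a negative difference, with a median of -1.33. Their mean per line was 2.68 to 7.69 in R172H lines (median 3.85) and 2.55 to 9.34 in lines with no Trp53 allele (median 6.94), and their part was not tested either.

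Bid averaged 7.99 ± 0.24 in R172H lines and 7.68 ± 0.49 in lines with no Trp53 allele (SD), a difference of 0.32 (95% interval -0.26 to 0.90) that was 0.17 without PPT-3250. For Bcl2l11, Bak1 and Bad the difference was smaller than its standard error, and their group means were 8.13, 7.03 and 8.38 in R172H lines against 7.87, 7.01 and 8.38 in lines with no Trp53 allele. The 4 other Bcl2l11 probe sets gave differences between -0.16 and 1.12, the last with an interval of 0.23 to 2.01 (unadjusted p = 0.0158, limma adjusted p = 0.23). In the wider family, 0 of 10 other measured Bcl2 relatives passed, and Bcl2l13, a mitochondrial relative, came nearest with 8.24 ± 0.35 in R172H lines and 7.42 ± 0.18 in lines with no Trp53 allele (adjusted p = 0.0591). Of the 11 apoptosome and caspase genes and the 7 death receptor genes measured, 0 passed by limma. Of each list 3 and 1 had an unadjusted p under 0.05, against 14% of all probe sets. The difference was positive for 6 of the 11 (median 0.14) and for 0 of the 7 (median -0.29).

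**Figure D3:**
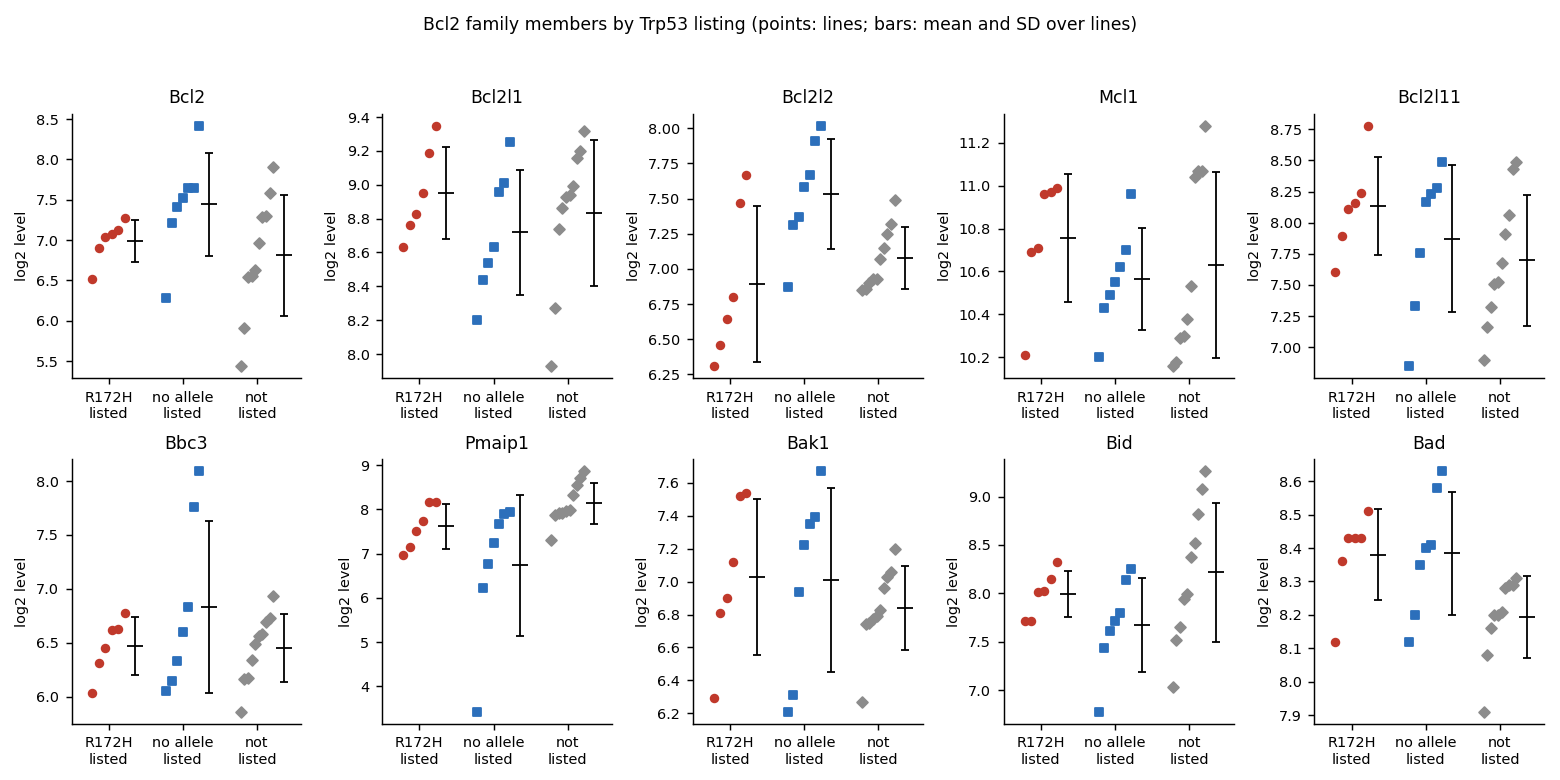
Log2 level (y axis, a separate scale per panel) of each gene in R172H lines, in lines with no listed Trp53 allele and in lines with no listed genotype, with each line as a point and the mean and SD beside it. The groups overlap for every gene, and the wide spread of Pmaip1 among lines with no listed Trp53 allele comes with the single value of 3.43.

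The Bez235 comparison asked whether untreated lines with high and low IC50 values differed in these genes. Of the 9 lines above the cutoff 1 was an R172H line and 6 were metastasis lines. Of the 14 below it 5 were R172H lines and 5 were metastasis lines. IC50 group was thus partly tied to Trp53 listing and to site, for which the fit had no term. The fit, like that for Rad001, had no term for the mouse and so treated the 23 lines of 14 mice as independent. Of the 10 members 0 passed by limma and 0 had an unadjusted p under 0.05, and of all probe sets 0% were called (0 of 45037) and 4% had an unadjusted p under 0.05. With trended and robust variances the count was also 0. Bbc3 averaged 6.81 ± 0.69 in the 9 lines above the cutoff and 6.42 ± 0.30 in the 14 below it (SD), a difference of 0.39 (95% interval -0.03 to 0.80, unadjusted p = 0.067). Without PPT-5671 and PPT-5748, which hold the highest values, it was 0.07. Bcl2l2 averaged 7.37 ± 0.37 above and 7.04 ± 0.45 below (difference 0.33, 95% interval -0.03 to 0.70), and Bid averaged 8.24 ± 0.64 above and 7.84 ± 0.52 below (difference 0.40, 95% interval -0.08 to 0.88). The Bid difference was 0.12 without mouse 15272, whose lines lie mostly above the cutoff, 0.23 under a random mouse block and -0.04 under a fixed one. For Bcl2l2 these blocks gave 0.39 (unadjusted p = 0.042) and 0.70. Without a block, its other probe sets gave 0.52 (95% interval 0.12 to 0.93, limma unadjusted p = 0.014), 0.09 and 0.02, and none passed. Bcl2l11 had a difference of -0.25 (SE 0.22), which was -0.14 without ASC-53909 and -0.01 with the fixed block, and Bad one of -0.09 (SE 0.08), which was -0.06 without mouse 15272. For Bcl2, Bcl2l1, Mcl1, Pmaip1 and Bak1 the difference was below its standard error. Their intervals were as wide as -1.13 to 0.75 for Pmaip1 and as narrow as -0.22 to 0.38 for Mcl1. Other Mcl1 probe sets gave 0.095 to 0.276, with unadjusted p of 0.0634 or more by limma.

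Against the order of Rad001 IC50 values, Bcl2l11 stood out among the members without passing. The slope over the 23 ranks gave a fitted difference of -0.90 between the highest and the lowest rank (SE 0.31, 95% interval -1.53 to -0.26), with an unadjusted p of 0.00753, rank 309 of 45037 by p, and a limma adjusted p of 0.999. All 4 other Bcl2l11 probe sets had negative slopes too, between -0.85 and -0.47, and 3 of these had an unadjusted p under 0.05. Probe sets of 1 gene on the same arrays are not independent. Leaving out each mouse in turn moved the value of the main probe set between -1.001 and -0.747. Its limma unadjusted p then lay between 0.00339 and 0.0497, the latter without mouse 53631. Of the 10 members 0 passed and 1 had an unadjusted p under 0.05, and of all probe sets 0% were called (0 of 45037) and 4.57% had an unadjusted p under 0.05. Fitted differences of at least 1 standard error were also seen for Bcl2l1 (-0.44), Bcl2l2 (0.47), Mcl1 (0.39), Bbc3 (0.54) and Bak1 (0.29). Leaving out 1 mouse brought Mcl1 to 0.13 (mouse 15272), Bcl2l1 to -0.22 (mouse 53631), Bbc3 to 0.35 (PPT-5671) and Bak1 to 0.17 (ASC-53909). With the mouse as a random block, Bcl2l1 was -0.68 (limma unadjusted p = 0.00933) and Mcl1 0.18. Bcl2l11 stayed negative under this block, at a size not given here, and its p-values above come from fits that treat the lines as independent. Without the block, the fitted differences of Bcl2, Pmaip1, Bid and Bad were smaller than their standard errors.

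By site, with the mouse as a random block, 0 of the 10 members passed and 0 had an unadjusted p under 0.05, and of all probe sets 0% were called by limma (0 of 45037) and 3.66% had an unadjusted p under 0.05. Bcl2l11 had 6.85, 7.52 and 8.78 as lowest, median and highest level in metastasis lines, against 7.33, 8.17 and 8.49 in primary tumour lines. The difference was -0.38 (SE 0.21, 95% interval -0.81 to 0.04, unadjusted p = 0.0763). Leaving out each mouse in turn moved it between -0.58, without the mouse of PPT-6051 and B-6051, and -0.20, without mouse 15272. Bcl2 (-0.30, SE 0.26) and Bbc3 (-0.21, SE 0.20) had negative differences that did not pass. Bcl2 was -0.06 without mouse 15272, and Bbc3 was -0.105 without PPT-5671 and 0.10 with the mouse as a fixed block, under which Bcl2l11 was -0.19. The other 7 members differed by less than their standard errors. Bok had a difference of 0.80 (SE 0.27, unadjusted p = 0.00654, adjusted p = 1). Its lowest levels, 6.93 in PPT-5671 and 6.59 in PPT-5748, are both in primary tumour lines, and the fit by site was not repeated without this pair.

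**Figure D4:**
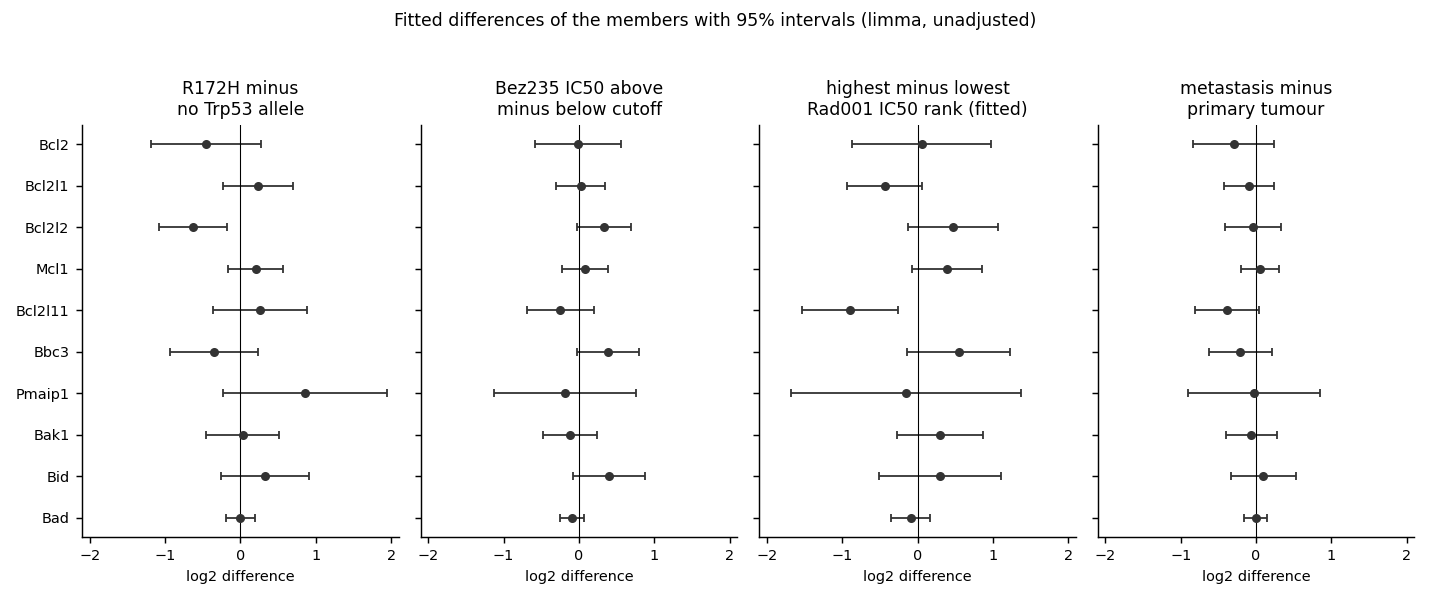
Fitted log2 difference (x axis) with its unadjusted 95% interval for each gene (y axis) in the comparisons by Trp53 allele, Bez235 group, Rad001 rank and site. Of 40 intervals, those of Bcl2l2 by Trp53 allele and of Bcl2l11 by Rad001 rank exclude 0, and no member passed after adjustment over all probe sets.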

How the data were processed

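RNA of 23 lines was hybridised to GeneChip Mouse Genome 430 2.0 arrays, 1 per line, and the authors deposited log2 values per probe set. How they were normalized is unsettled, because VSN stands in the supplementary methods and RMA in the submitters' processing notes. They were used as deposited. Of 45101 probe sets, 64 controls were left out. The tests were run in limma 3.58.1 (R 4.3.3), with p-values adjusted by Benjamini-Hochberg over 45037 probe sets at a threshold of 0.05. The mouse was a random block by Trp53 allele (correlation 0.182) and by site (0.243), taken from the mouse number in the line names. The block correlation was estimated on all probe sets in the fits reported, on an evenly spaced part of the probe sets in most alternatives, and carried over when a mouse was left out. Trp53 listing and IC50 order were joined to the arrays by line name from the study's tables, and line B-152727 was read as the table's B-15272. The members, lists and comparisons were chosen with earlier results of these data known. The text names all 10 members, up to 3 genes of a list with the smallest p and the 3 genes most like each of the 3 most variable members, and prints a part of these. Signed differences are printed for members whose difference is at least 1 standard error, with a few exceptions outside the members. This limit was set after the fits had been seen. The mouse F test and the fits without named lines were also added after seeing the data. Fits were tested on simulated data. Figures were drawn with matplotlib 3.10.9 in Python 3.11.15. Each line is 1 culture, so p-values measure the spread between lines, and the number of arrays limits the precision. An allele shared by the listed lines is not reported here.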

Additional observations from a re-analysis of the deposited data

Results flagged for a closer look

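Of 40 groups of lines checked for a single line far from the rest, 3 held one, and 2 of these 3 are the same value in overlapping groups. The critical value used is passed by about 1 in 20 groups by chance. Pmaip1 in ASC-53909, at 3.43, was far below the other lines with no Trp53 allele, with a gap of 2.8 to the next line, and far below the other lines above the Bez235 cutoff, with a gap of 3.8. Bak1 in HEP-5123, at 6.27, was below the other 9 lines with no listed genotype, with a gap of 0.47.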

How the results depend on the processing

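The 10 members in 4 comparisons gave 40 differences, and 982 recomputed values changed no call. Under every alternative run for these comparisons 0 members passed by limma. By Bez235 group, Rad001 rank and site, 0 of 45037 probe sets were called in the main fits, so unchanged member calls say little there. The sign changed in 103 of the 982. Of these, 91 belonged to the 19 differences below 1 standard error, whose signed values are plotted but not printed, and this limit was set after the fits had been seen. The other 21 differences changed sign in 12 of 519 values, and in 0 of the 294 that left out a mouse. By Trp53 allele, other probe sets gave -0.007 and -0.13 for Bcl2l1, 0.19 and 0.11 for Bcl2l2, and -0.16, -0.23, -0.17 and -0.12 for Mcl1, and Bbc3 was 0.083 without PPT-5671 and PPT-5748. With the mouse as a fixed block, Bid by Bez235 group was -0.04 and Bbc3 by site 0.10, and Bad by Bez235 group was 0.015 over lines whose IC50 interval excludes the cutoff. The number of probe sets called by Trp53 allele moved between 16 and 517 when a mouse was left out and was 2123 without PPT-5671 and PPT-5748, against 236. The mouse F test called 1 member with arrays centred on their medians, and between 0 and 2 when a mouse was left out. The fits with the mouse as a fixed block are the within-mouse comparisons, since replicate numbers in the labels pair no groups. In simulated data of the Trp53 comparison, 5 of 50 changes of 0.5 and 27 of 50 changes of 1 were recovered.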
